A study of Mus musculus with 6 samples.

Results

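The genes described here encode 7 receptors for the neurotrophins and the GDNF family of neurotrophic factors in the mouse trigeminal ganglion (TG), which holds the cell bodies of sensory neurons of the head. They were chosen by gene name, and all 7 had a row among the 13673 rows of the table. They are the receptor tyrosine kinases Ntrk2 (TrkB), Ntrk3 (TrkC) and Ret, the neurotrophin receptor Ngfr (p75NTR), and the membrane-anchored GDNF family coreceptors Gfra1, Gfra2 and Gfra3. The animals were WT mice given either CFA (complete Freund's adjuvant, mineral oil with killed mycobacteria that inflames the injected tissue) or Saline. Ganglia were taken at day 3, with 3 libraries per group. The labels name the cells as neurons and glia, and give no age, strain or injection site. They do not tie a library to 1 animal, so each p-value rests on a spread between libraries that may in part be technical.

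Neurotrophins bind Trk kinases, which signal for survival and growth, and they also bind p75NTR, which can act beside a Trk or on its own. Ligands of the GDNF family first bind a GFRα coreceptor, and the pair then engages the shared kinase RET. Sensory neurons divide these receptors among themselves: TrkB and TrkC mark low-threshold and proprioceptive neurons, GFRα2 with RET marks non-peptidergic nociceptors, and GFRα3 is found mainly on peptidergic nociceptors. Glia also carry several of them, p75NTR on Schwann cells and truncated TrkB on other glia among them.

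Levels are in FPKM, fragment counts divided by transcript length and by the fragments mapped in that library. They are given per gene, so they add together receptor forms that work differently. The coding sequences below come from GENCODE M21 transcripts (GRCm38) and run 5′ to 3′. They are shown for 4 of the 7 genes, whose annotated forms differ in the kinase, the tail or a short exon. For the first 3 genes, lower case marks the last 24 coding bases that both forms share. Capitals mark the next coding bases of each form, at most 39. For Gfra1, capitals mark a short exon that is present in 1 form and skipped in the other.
Ntrk2, kinase form: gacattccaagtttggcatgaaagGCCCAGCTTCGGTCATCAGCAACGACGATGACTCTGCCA
Ntrk2, truncated form: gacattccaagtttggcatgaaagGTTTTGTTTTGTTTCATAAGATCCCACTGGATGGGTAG
Ntrk3, kinase form: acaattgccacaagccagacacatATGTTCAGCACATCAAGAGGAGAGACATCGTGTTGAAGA
Ntrk3, truncated form: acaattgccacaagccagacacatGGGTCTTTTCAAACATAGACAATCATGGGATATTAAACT
Ret, short tail: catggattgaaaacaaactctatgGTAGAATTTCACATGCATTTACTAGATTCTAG
Ret, long tail: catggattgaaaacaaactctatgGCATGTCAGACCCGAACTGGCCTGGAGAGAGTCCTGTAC
Gfra1, with the short exon: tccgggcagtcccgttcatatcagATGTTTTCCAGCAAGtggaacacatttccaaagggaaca
Gfra1, without the short exon: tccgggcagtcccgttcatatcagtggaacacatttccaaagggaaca

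The 2 forms of Ntrk2, on the plus strand of chromosome 13, share 1393 coding bases. The kinase form (821 residues) goes on at 58985802, whereas the truncated form goes on at 58932023 and reaches its stop codon, the last 3 capitals, after 38 bases, for a protein of 476 residues that lacks the kinase. In Ntrk3, on the minus strand of chromosome 7, 1585 coding bases are shared. The kinase form (825 residues) then continues at 78260414 and the truncated form (612 residues) at 78304426. The tails of Ret, on the minus strand of chromosome 6, part after 3190 shared coding bases at 118155287 (1073 residues) and 118154010 (1115 residues). The short exon of Gfra1, on the minus strand of chromosome 19, starts at 58392587 and adds 15 bases, so that the proteins have 468 and 463 residues. Annotated forms of Gfra2, not shown, encode 309 to 464 residues. None of the values that follow can tell such forms apart. Ngfr and Gfra3 each have 1 annotated transcript, Gfra2 has 3, Ret 2, Gfra1 9, Ntrk2 10 and Ntrk3 20. The annotated transcripts of Ntrk3 run from 224 to 19703 bases, so its FPKM depends on the length that the authors assigned to it, which no source used here states. Exons of Gfra1 overlap the antisense gene Gm16277, and those sources do not say whether quantification used the strand. No other receptor gene of the 7 shares exon sequence with a neighbour in that annotation.

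The receptor transcripts spanned mean levels of 6.32 to 76.3 FPKM, led by Ngfr and Ret. Over the 6 libraries Ngfr (chromosome 11, 95568818 to 95587735) had a mean of 76.3 FPKM, higher than in 95.8% of all rows. Ret (chromosome 6, 118151745 to 118197718) followed at 66.6 FPKM, and the ranges of these 2 genes overlapped (66.2 to 85.6 and 57.7 to 73.5 FPKM). Next in order were the coreceptors, Gfra2 (chromosome 14, 70890120 to 70979838) at 27.4 FPKM, Gfra1 (chromosome 19, 58235604 to 58455909) at 18.3 FPKM and Gfra3 (chromosome 18, 34689903 to 34720387) at 12.1 FPKM. These 2 Trk genes were lowest of the 7, Ntrk2 (chromosome 13, 58806569 to 59133970) at 9.53 FPKM and Ntrk3 (chromosome 7, 78175959 to 78738012) at 6.32 FPKM. Below Ret, no gene's range over the 6 libraries overlapped that of the next gene in this order. Even Ntrk3 stood above 53.8% of rows. Coordinates are those of the table (GRCm38), and those of Gfra3 differ from GENCODE M21.

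**Figure D1:**
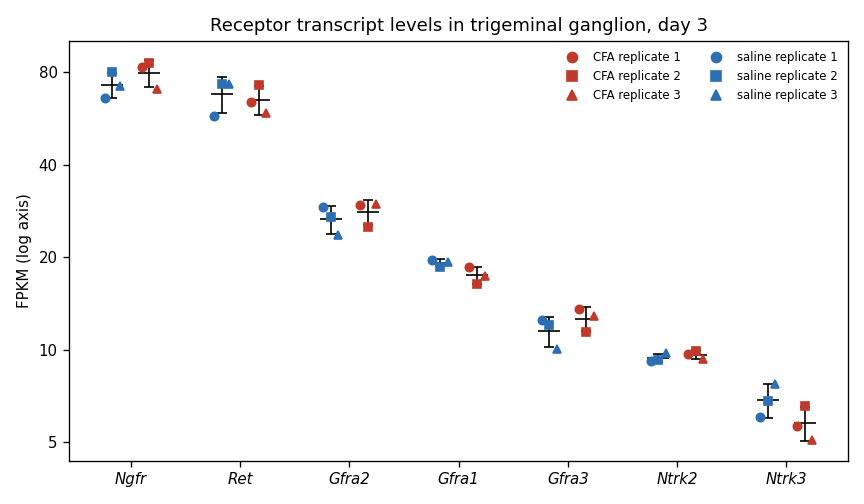
FPKM of each receptor gene (log axis) in each library, with saline in blue and CFA in red, symbols for the replicate number, and black bars for the group mean and SD (n = 3). Ngfr and Ret lie highest and Ntrk3 lowest in both groups, and the colours overlap for every gene except Gfra1.

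CFA and saline ganglia did not differ detectably in any of the 7 receptor transcripts. By limma, fitted to log2(FPKM + 1) over 12238 genes, 0 of the 7 passed an adjusted p of 0.05, where 0.0572% of all genes tested did. None of the 7 passed an unadjusted p of 0.05 either, against 8.32% of all genes tested. The means of 4 genes were higher with CFA and those of 3 were lower, and 51.4% of all genes tested were higher. The median size of the 7 log2 differences was 0.124, beside 0.108 over all genes tested. In a whole ganglion, fewer cells of a type and less RNA per cell cannot be told apart. Each difference below subtracts the saline mean of log2(FPKM + 1) from the CFA mean, a scale that understates the change of a low gene, with the standard error (SE) and the 95% interval of the single gene.

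Among the Trk kinases, Ntrk2, the receptor for BDNF and neurotrophin-4, was listed at 9.69, 9.94 and 9.32 FPKM with CFA and at 9.21, 9.29 and 9.75 FPKM with saline. The groups overlapped, and all 6 libraries lay within a narrow band. Its log2 difference was 0.03 (SE 0.0717, interval −0.14 to 0.20, limma adjusted p = 0.909). Its within-group SD of 0.0412 on the log2 scale was smaller than that of most genes, since only 1.80% of genes tested had a smaller one. Ntrk3, the receptor for neurotrophin-3, was listed at 5.66, 6.58 and 5.11 FPKM with CFA and at 6.03, 6.83 and 7.75 FPKM with saline. CFA replicates 1 and 3 were the lowest of the 6 libraries and saline replicates 2 and 3 the highest, while CFA replicate 2 lay above saline replicate 1. The means were 5.78 ± 0.745 and 6.87 ± 0.858 FPKM (SD, n = 3). Its log2 difference of −0.21 (SE 0.122, interval −0.51 to 0.08, limma adjusted p = 0.675) had the widest reach below 0 of the 7. Among all genes tested, 18.6% had a smaller p.

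Ngfr, whose product binds all mature neurotrophins and their precursors, was listed at 83.4, 85.6 and 70.7 FPKM with CFA and at 66.2, 79.9 and 72.1 FPKM with saline. CFA replicates 1 and 2 were the highest of the 6 libraries, but CFA replicate 3 lay below 2 of the saline libraries. The means were 79.9 ± 8.06 and 72.7 ± 6.88 FPKM (SD, n = 3), for a log2 difference of 0.13 (SE 0.107, interval −0.12 to 0.39, limma adjusted p = 0.733).

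Ret, the kinase shared by all GFRα coreceptors, was listed at 64.1, 72.7 and 58.8 FPKM with CFA and at 57.7, 73.5 and 73.0 FPKM with saline. The lowest library and the highest were both saline. The means of 65.2 ± 6.99 and 68.1 ± 8.99 FPKM (SD, n = 3) gave a log2 difference of −0.06 (SE 0.126, interval −0.36 to 0.24, limma adjusted p = 0.907). The sign of this difference turned without CFA replicate 3 (0.013) or without saline replicate 2 (0.001).

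The coreceptor means lay in both directions. Gfra1, which binds GDNF, was listed at 18.6, 16.4 and 17.4 FPKM with CFA and at 19.7, 18.7 and 19.2 FPKM with saline. Every CFA library was below every saline library, the nearest being CFA replicate 1 at 18.64 FPKM and saline replicate 2 at 18.66 FPKM. This was the single receptor gene of the 7 whose groups did not overlap, where 14.5% of all genes tested did not overlap in either direction and 6.66% did so with CFA lower. The means were 17.5 ± 1.13 and 19.2 ± 0.508 FPKM (SD, n = 3), and the log2 difference of −0.13 (SE 0.0750, interval −0.31 to 0.05) did not pass (limma adjusted p = 0.676).

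Gfra2, the coreceptor for neurturin, was listed at 29.5, 25.1 and 29.8 FPKM with CFA and at 29.1, 27.0 and 23.7 FPKM with saline. The groups overlapped, with CFA replicate 2 lower than 2 of the saline libraries. The log2 difference was 0.08 (SE 0.106, interval −0.17 to 0.33, limma adjusted p = 0.829), and it ran from 0.002 to 0.156 without any one library. Gfra3, the coreceptor for artemin, was listed at 13.6, 11.4 and 12.9 FPKM with CFA and at 12.5, 12.1 and 10.1 FPKM with saline. Here too CFA replicate 2 lay below saline replicates 1 and 2, and saline replicate 3 was lowest. The log2 difference of Gfra3 was 0.12 (SE 0.109, interval −0.14 to 0.38, limma adjusted p = 0.748).

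**Figure D2:**
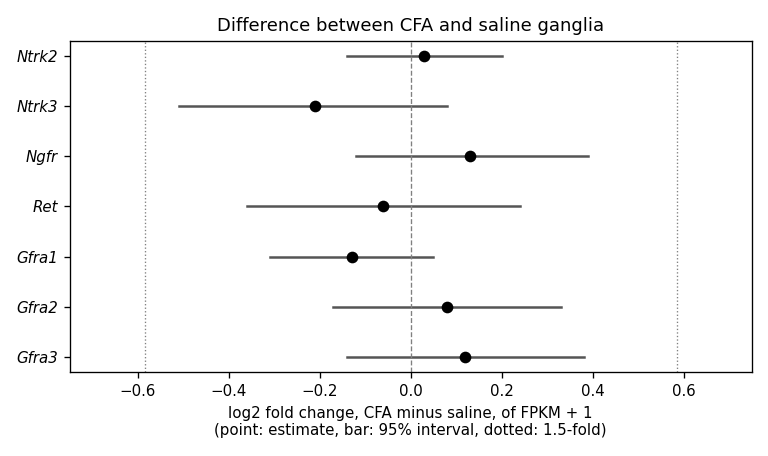
Log2 difference of FPKM + 1 between CFA and saline for each receptor gene, with the estimate as a point, the 95% interval as a bar, and dotted lines at 1.5-fold in either direction. Every interval crosses 0 and stays inside the dotted lines, the lowest reaching −0.51 (Ntrk3) and the highest 0.39 (Ngfr).

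These intervals give the size of change that the libraries leave room for. Taken one gene at a time and as ratios of FPKM + 1, the interval of Ntrk2 ran from 0.908 to 1.15 and that of Gfra1 from 0.807 to 1.03. Ntrk3 had the lowest bound of the 7, 0.704, and the highest bound was 1.31, for Ngfr and Gfra3. A change of 1.5-fold on this scale was thus outside the 95% interval of each of the 7 genes. Each bound stands for a larger change in FPKM itself, most so for low genes such as Ntrk3. The statement therefore does not carry over to a 1.5-fold change in FPKM. Differences inside these intervals were not excluded with 3 libraries per group.

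Ratios of receptor transcripts within a library were compared for 5 pairs by an exact two-sided permutation test. The ratios are printed as FPKM ratios, which do not depend on the scaling of a library, while the differences and tests are of log2 ratios of FPKM + 1, which are slightly smaller for low genes. With 3 libraries against 3 that test cannot give a p below 0.1. The FPKM of Gfra1 was 0.632, 0.652 and 0.582 times that of Gfra2 with CFA and 0.677, 0.690 and 0.812 times with saline. All CFA libraries were thus lower, with a log2 difference of −0.21 between means (exact permutation p = 0.1, the smallest possible, and 0.25 adjusted over the 5 ratios). Without saline replicate 3 that difference was −0.13, and without both libraries numbered 3 it was −0.085. The ratio of Ntrk2 to Ntrk3 was 1.71, 1.51 and 1.82 with CFA and 1.53, 1.36 and 1.26 with saline, and the groups overlapped by a small margin (log2 difference 0.25, exact permutation p = 0.2, adjusted 0.25). Ngfr stood at 5.44, 5.18 and 4.90 times the sum of Ntrk2 and Ntrk3 with CFA and at 4.34, 4.96 and 4.12 times with saline (log2 difference 0.21, exact permutation p = 0.2, adjusted 0.25). Gfra3 stood in a nearly fixed ratio to Gfra2, from 0.425 to 0.461 in all 6 libraries (log2 difference 0.04, exact permutation p = 0.2, adjusted 0.25). Ret varied most against its coreceptors, from 0.941 to 1.38 times the sum of Gfra1, Gfra2 and Gfra3, with saline libraries at both ends (log2 difference −0.08, exact permutation p = 0.9, adjusted 0.9).

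Of the summed FPKM of these 3 coreceptors, Gfra2 made up 48.3% ± 1.14 with CFA and 46.3% ± 1.44 with saline, Gfra1 30.0% ± 1.05 and 33.6% ± 2.36, and Gfra3 21.7% ± 0.290 and 20.1% ± 0.984 (SD, n = 3). The order Gfra2, Gfra1, Gfra3 held in each of the 6 libraries. Shares of 1 sum are tied to each other, so a lower share of Gfra1 raises the others by construction.

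**Figure D3:**
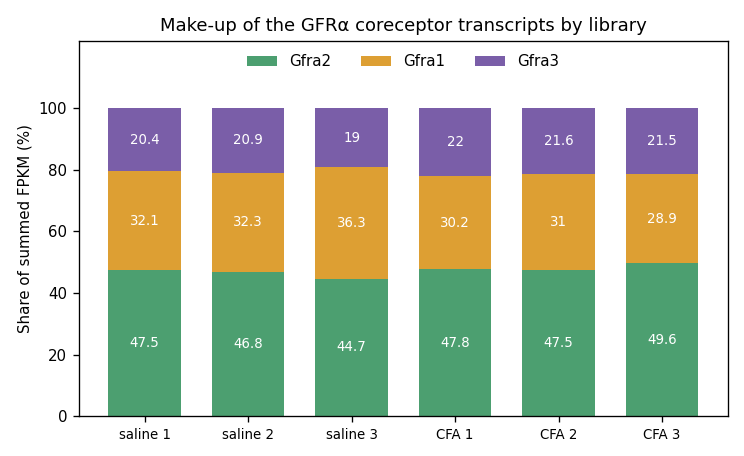
Share of Gfra2 (green), Gfra1 (orange) and Gfra3 (purple) in their summed FPKM, in percent, for each library. Gfra2 is the largest share in every library (44.7% to 49.6%), and the Gfra1 share is 28.9% to 31.0% in the CFA libraries and 32.1% to 36.3% in the saline libraries.

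From library to library, some receptor transcripts varied together in both groups. Over the 6 libraries the log2 levels of Gfra2 and Gfra3 had a Pearson r of 0.95, the highest among the receptor genes. Saline replicate 3 and CFA replicate 2 were low for both, and CFA replicates 1 and 3 were high for both. Ntrk3 and Ret came next with r = 0.81, with both low in CFA replicate 3, CFA replicate 1 and saline replicate 1. Ngfr and Ntrk2 were each other's closest receptor gene at r = 0.65, and the closest one to Gfra1 was Ntrk3 at r = 0.26. These values describe 6 libraries that differ in their make-up of tissue and in treatment, and no p is attached. Markers of neurons as a whole (12 genes such as the neurofilament gene Nefl) had their lowest summed level, 3814 FPKM, in saline replicate 3, where Gfra2 and Gfra3 were also lowest. It was 4412 to 5092 FPKM in the other libraries. That sum rests mostly on abundant genes such as Nefl and Tubb3, which were lowest in saline replicate 3 (935 and 686.5 FPKM). Other members went the other way, with Isl1 (38.45 FPKM) and Syt1 (28.43 FPKM) highest in that library. The part of neuronal content in these patterns was not tested.

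**Figure D4:**
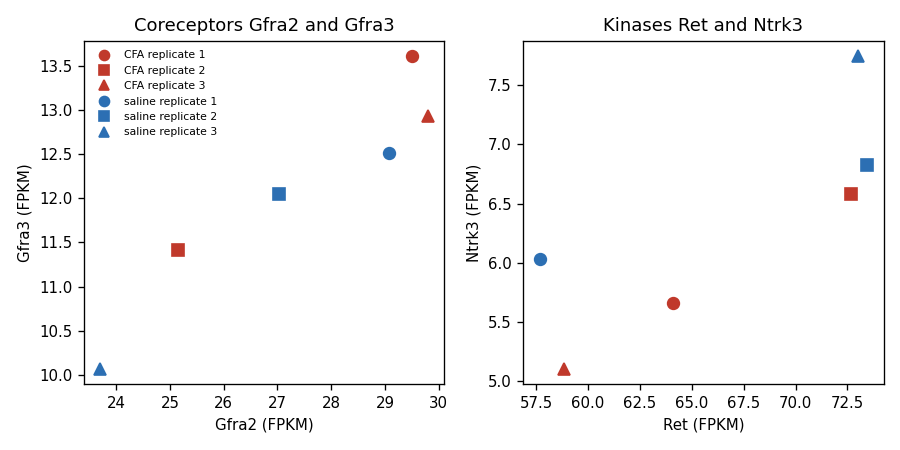
FPKM of Gfra3 against Gfra2 (left) and of Ntrk3 against Ret (right), 1 point per library, with CFA in red, saline in blue and symbols for the replicate number. On the left the points follow 1 rising line with both colours along it, and on the right 3 libraries with Ret above 70 FPKM also have the highest Ntrk3.

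Among all genes tested, predicted models aside, the 3 with the highest r to each receptor gene were as follows. Those nearest to Ntrk2 were Zfp644, Papss2 and Arl4a, with r from 0.982 to 0.985. For Ntrk3 they were Gpr137c, Jmy and Hapln1 (0.995 to 0.997) and for Ret they were Lancl2, Edil3 and Ppm1k (0.993 to 0.998). Ngfr had Pik3cb, Atp5a1 and Prg4 as its nearest genes (0.979 to 0.987). For the coreceptors they were Dbt, Sez6 and Ly96 with Gfra1 (0.972 to 0.983), Yipf2, Hypk and Cep131 with Gfra2 (0.992 to 0.996), and Rprm, Nudt8 and Bex2 with Gfra3 (0.993 to 0.997). These genes were picked from 12238 over only 6 libraries, so nothing about shared function follows from such values.

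The ligands of these receptors had few rows to examine. Bdnf, the ligand of TrkB, was listed at 7.36, 8.60 and 8.25 FPKM with CFA and at 7.60, 6.67 and 7.51 FPKM with saline. CFA replicates 2 and 3 were highest, and CFA replicate 1 lay among the saline libraries (log2 difference 0.13, SE 0.0926, limma adjusted p = 0.710). Nrtn, which encodes neurturin, was near the filter on low values at 1.43, 0.744 and 1.74 FPKM with CFA and 1.03, 1.03 and 1.01 FPKM with saline. Its CFA libraries lay on both sides of the saline ones (log2 difference 0.16, SE 0.172, limma adjusted p = 0.782). The difference was 0.023 without CFA replicate 3 and 0.349 without CFA replicate 2. Exons of Bdnf overlap those of Gm45346 on the other strand. The other 6 ligand genes looked for, Gdnf among them, were not analysed here.

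Beyond the 7 receptors, 98 genes of the same pathways were looked up in 7 lists, of which 86 could be tested. By limma 0 of the 86 passed an adjusted p of 0.05. At an unadjusted p of 0.05 there were 2 (2.33%, against 8.32% of all genes tested), 1 higher and 1 lower, while the median log2 difference of all 86 was 0.01. Both of the 2 were in the list of other receptors and coreceptors, where they were 2 of 13 genes tested. Groups did not overlap in 4 of these 13 (30.8%, against 14.5% of all genes tested), 2 higher and 2 lower with CFA. Sort1, which encodes sortilin, the partner of p75NTR in binding precursor neurotrophins, was listed at 13.3, 14.9 and 14.7 FPKM with CFA and at 12.3, 12.2 and 12.2 FPKM with saline. All CFA libraries lay above the saline ones (log2 difference 0.20, SE 0.0734, limma adjusted p = 0.569). Lingo1, which encodes a membrane partner of p75NTR in the Nogo receptor complex, was listed at 5.52, 4.70 and 5.36 FPKM with CFA and at 5.61, 6.78 and 6.96 FPKM with saline. Its CFA libraries all lay below the saline ones, the nearest by a small margin (log2 difference −0.26, SE 0.108, limma adjusted p = 0.592).

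No gene passed even an unadjusted p of 0.05 by limma among the 16 p75NTR partners and cleavage enzymes, the 21 Trk and Ret adaptors, the 20 downstream kinases and the 14 feedback inhibitors tested. Groups did not overlap in 1, 2, 1 and 3 of them (6.25%, 9.52%, 5% and 21.4%, where 14.5% of all genes tested did not overlap), and the 3 feedback inhibitors were all lower with CFA. The median log2 differences of the 4 lists were 0.01, 0.06, 0.01 and −0.04. The most abundant member of each list shows the scale. Sqstm1 (p62), a scaffold that binds the p75NTR partner TRAF6, had means of 169 FPKM with CFA and 132 FPKM with saline, where saline replicate 1 alone stood at 81.7 FPKM and all other libraries at 149 to 181 FPKM. The adaptor Dok4, a RET substrate, had means of 79.6 and 77.4 FPKM, the kinase Mapk3 (ERK1) 240 and 237 FPKM, and Cd2ap, which links activated receptors to their removal from the membrane, 18.9 and 21.2 FPKM (limma adjusted p = 0.691, 0.920, 0.968 and 0.703 in this order). Exons of Sqstm1 and Dok4 overlap those of Mrnip and Polr2c on the other strand.

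Summed marker levels of some cell types and tissues lay apart between the groups, and those of others overlapped. Summed FPKM of 12 pan-neuronal markers overlapped, at 4410 to 5090 with CFA and 3810 to 4670 with saline. Of these 12, 6 had lower means with CFA. The 12 nociceptor markers, led by Calca, summed to 667 to 694 with CFA and 521 to 637 with saline. These sums rest mostly on Calca, at 417.7 to 458.4 FPKM with CFA and 318.2 to 399.5 FPKM with saline. Calca was the only 1 of the 12 whose groups did not overlap (8.33%, against 14.5% of all genes tested). Of the 12, 8 were higher with CFA (51.4% of all genes tested were), none at an unadjusted p of 0.05 by limma. Sums overlapped for low-threshold and proprioceptive neurons (980 to 1090 and 920 to 1020). They also overlapped for myelinating (2160 to 2530 and 2140 to 3000) and non-myelinating Schwann cells (383 to 415 and 365 to 384). For 11 satellite glia markers, led by S100b, the sum was 2540 to 3100 with CFA and 1890 to 2340 with saline. However, only 9 of the 11 had higher means with CFA. Cdh19, chosen after its values were seen, had a log2 difference of −0.54. The 11 markers of central nervous system tissue, led by Mobp, summed to 394 to 462 with CFA and 272 to 337 with saline, and 10 of the 11 were higher at an unadjusted p of 0.05 by limma, as were 5.37% of all genes tested. The 9 macrophage markers, led by Ctss, summed to 144 to 161 with CFA and 100 to 109 with saline. Of these 9, 8 had higher means with CFA, 6 of them at an unadjusted p of 0.05 by limma. Cd163, chosen after its values were seen, was lower (log2 difference −0.42). The 9 vascular markers, led by Rgs5, lay apart the other way, with sums of 70.1 to 71.3 with CFA and 73.5 to 82.4 with saline. Of the 8 tested, 4 had lower means with CFA and 4 had higher ones. Pituitary markers varied far more, from 190 to 4850 FPKM, highest in saline replicate 3 and lowest in saline replicate 2. Skeletal muscle markers were also highest in saline replicate 3, with a sum of 211 FPKM beside 3.57 to 60.1 FPKM in the other libraries. No marker with a row was at 0 in all libraries. Scaling each library to its pan-neuronal markers left the differences of the receptor genes at −0.22 (Ntrk3) to 0.13 (Ngfr), and the part of the other cell types was not tested.

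**Figure D5:**
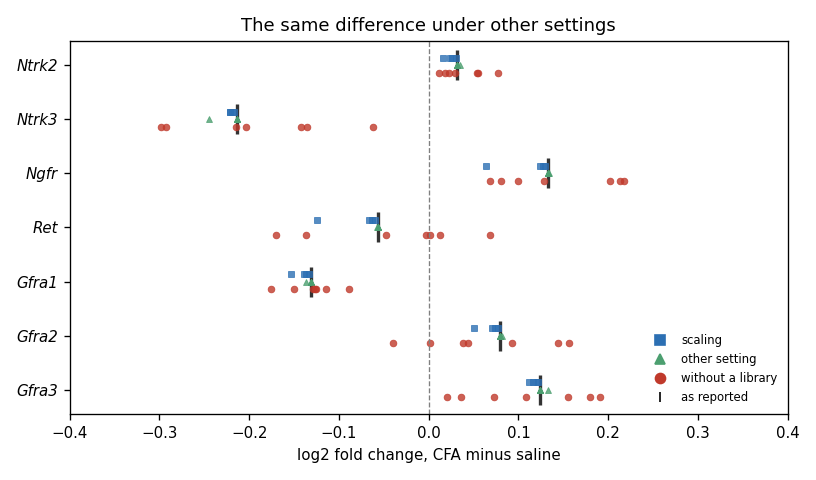
Log2 difference between CFA and saline for each receptor gene under each setting, with the reported value as a black line, other scalings in blue, other filters, pseudocounts and variance models in green, and fits without 1 library or without both libraries numbered 3 in red. All values lie between −0.30 and 0.22, and those of Ret and Gfra2 fall on both sides of 0.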

How the data were processed

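Poly(A) RNA of 6 trigeminal ganglion samples was made into stranded libraries (KAPA kit) and sequenced, per the labels' protocols. The authors deposited 1 table of FPKM, per the file headers, and GRCm38 is the build named by the submitters' processing notes. Aligner, quantification tool, annotation release and use of strand: none of these is given in the sources used here. FPKM totals of 261183 to 275152 are not depths. Low values of genes with 1 transcript showed no whole-read steps (strength at most 0.14, where 1 means all whole), so depth is unknown and no counting interval is given. Rank correlations between libraries were 0.954 to 0.973, so none looked deposited a second time.

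The 12238 genes whose 6-library mean reached 1 FPKM were compared on log2(FPKM + 1) by limma 3.58.1 in R 4.3.3 (lmFit, then trended eBayes without covariates), with Benjamini-Hochberg adjustment over all of them. All tests were two-sided, and the fit was tested on simulated data. The members, the gene lists, the tests and the rule for named genes were chosen with earlier results of these data known. That rule names the 7 receptors, all ligands with a row, up to 3 members per pathway list at an unadjusted p below 0.05 without overlap (or the most abundant one), the most abundant marker of a list, and the 3 genes with the highest Pearson r to each receptor. Genes named beyond it were chosen after their values were seen. Alternatives were a pseudocount of 0.1, no filter or a mean of at least 5, 4 other scalings, 2 other variance models, a block on the replicate number, and fits without each single library or without both numbered 3. Transcripts and coding sequences were read from GENCODE M21. Figures were drawn with matplotlib 3.10.9. A few withheld items are not reported here.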

Additional observations from a re-analysis of the deposited data

How the results depend on the processing

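Over 17 alternatives, 0 receptor genes passed an adjusted p of 0.05 by limma (lowest adjusted p 0.396, for Ntrk3). The log2 differences of Ntrk2, Ntrk3, Ngfr, Gfra1 and Gfra3 kept their sign in all 17, with ranges of 0.01 to 0.08, −0.30 to −0.06, 0.06 to 0.22, −0.18 to −0.09 and 0.02 to 0.19. The other filters, the other variance models and the block cannot move these estimates. For them the same sign is fixed in advance, and only p can change. That of Ret ranged from −0.17 to 0.013 without any one library, turning positive without CFA replicate 3 (0.013) or saline replicate 2 (0.001), and was 0.068 without both libraries numbered 3, where that of Gfra2 was −0.04. The log2 ratio of Ret to its coreceptors ran from −0.241 to 0.030 without any one library, was 0.014 without CFA replicate 3, and was 0.123 without both libraries numbered 3. Quantile normalization turned Dok4 (−0.010) and Mapk3 (−0.025), as did leaving out both libraries numbered 3 (−0.098 and −0.099). Without any one library they ran from −0.040 to 0.101 and from −0.071 to 0.091. Among the pathway genes, 0 passed an adjusted p of 0.05 in any alternative except without CFA replicate 1, where 1 did (Pik3ca, log2 difference 1.69, adjusted p = 0.0380). The 2 at an unadjusted p of 0.05 became 1 with a mean of at least 5 FPKM or a common total, 5 with median-of-ratios factors, 4 with quantile normalization, 0 with pan-neuronal scaling or without both libraries numbered 3, and 0 to 5 without any one library. The cause was not tested. Same-numbered libraries are not said to be paired, and their deviations from group means correlated at 0.08, 0.11 and −0.05. With the replicate number as a block, 0 receptor genes passed. The estimates are the same with this block by construction, as for Ntrk3 at −0.214. By limma 2 pathway genes then had an unadjusted p below 0.05, Pik3ca and Plcg1 in place of Sort1 and Lingo1. Calls over all genes went from 7 to 1. With depth unknown and 3 libraries per group, differences inside the 95% intervals were not excluded.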
